A study of Mus musculus with 10 samples.

Results

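This is a comparison of 2 sorted cell populations, endoderm and Foxa2- cardiac mesoderm (CM), made over the 2 samples labelled as endoderm and the 3 labelled as Foxa2- CM, which are 5 of the 10 samples of the series. All came from 1 mouse embryonic stem cell (mESC) line that expresses truncated human CD4 under control of the Foxa2 locus, and an antibody to CD4 therefore sorts living cells by Foxa2 expression. The cells were differentiated as embryoid bodies and sorted at day 5. Endoderm came from cultures given Activin A at 75 ng/ml and was sorted as Pdgfra- Kdr- CD4+. Foxa2- CM came from cultures given Activin A at 8 ng/ml, BMP4 at 1 ng/ml and VEGF at 5 ng/ml and was sorted as Pdgfra+ Kdr+ CD4-. Cell population and culture condition therefore cannot be told apart. The other samples, 3 of Foxa2+ CM and 2 of Flk1+ high mesoderm, were used for the estimate of spread between replicates. The values are RNA sequencing reads per gene, and the sources used here do not say whether replicates of a group came from separate cultures, so the p-values measure only the spread between these samples.

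Definitive endoderm and cardiac mesoderm both leave the primitive streak during gastrulation. The T-box factor Eomes acts upstream of both, high Nodal or Activin signalling favours endoderm through Foxa2, Sox17 and related factors, and BMP, Wnt and FGF signalling accompany the Mesp1-expressing cells from which the heart forms. Endoderm keeps or regains an epithelial state with E-cadherin and claudins, whereas mesoderm cells migrate as mesenchyme.

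Counts on genes totalled 10926284 and 12317143 in the endoderm samples and 15497427, 12616900 and 17287087 in the Foxa2- CM samples, and levels are given as CPM, the counts scaled to a common library size. In 1 library, 3 counts correspond to between 0.174 and 0.275 CPM, a floor that covers counting error only. The spread within groups exceeded sampling noise (chi-square per degree of freedom 3.86 to 14.1). The genes behind the sort followed the gates, which is a check of the labels and not a result. Foxa2 (ENSMUSG00000037025.5, chromosome 2 from 148042877 to 148046969, minus strand of the mm10 build, which all positions refer to) stood at 186 and 183 CPM in endoderm and 2.54, 0.873 and 0.903 CPM in Foxa2- CM. Kdr, the VEGF receptor also called Flk1, stood at 6.24 and 9.96 CPM in endoderm and 392, 440.2 and 432 CPM in Foxa2- CM. Pdgfra, the platelet-derived growth factor receptor alpha, stood at 49.9 and 71.6 CPM in endoderm and 294, 306 and 259 CPM in Foxa2- CM. Epcam, an epithelial adhesion molecule, was not part of the gate and stood at 147 and 127 CPM in endoderm and 39.1, 32.5 and 26.3 CPM in Foxa2- CM. Each population also held RNA of genes that mark other cells. Summed over 29 haemato-endothelial markers, levels were 419 and 718 CPM in endoderm and 957, 1008 and 1455 CPM in Foxa2- CM, so that replicate 3 of Foxa2- CM stood above the other Foxa2- CM samples. Kdr, a gene of the gate, made up 392, 440.2 and 432 CPM of these Foxa2- CM sums. The sums also hold Hhex, which is on the list of endoderm regulators too, so they do not measure other cells alone. Summed over 30 pluripotency and epiblast genes, levels were 3339 and 3194 CPM in endoderm and 1690, 1866 and 1606 CPM in Foxa2- CM. Over 22 visceral endoderm markers they were 221 and 382 CPM in endoderm and 182, 199 and 319 CPM in Foxa2- CM.

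Most of the transcriptome stood at a similar level in both populations, and the genes that differed did so in both directions in comparable number. Of 16180 genes tested, 1485 were higher in endoderm, which is 9.18% of them, and 1263 were lower, which is 7.81%. A gene was called when it differed at least 2-fold with an adjusted p under 0.05, from the quasi-likelihood test of edgeR after Benjamini-Hochberg adjustment. Another 8384 genes, or 51.8%, were at a similar level, meaning a mean of at least 10 CPM in both groups and a fold change shown by 2 one-sided tests to lie within 2-fold. The remaining 5048 genes were neither called nor similar, and 4328 of these were under 10 CPM in at least 1 group. The shares of 9.18% higher, 7.81% lower and 51.8% similar are the background for the counts over gene lists that follow. A list member could pass the expression filter through any group where it was high. The directions among tested members are therefore descriptions and not tests. Log2 fold changes (log2FC) are given with their standard errors (SE) as endoderm relative to Foxa2- CM, and their median over all tested genes was 0.01. In these bulk samples, fewer cells of a type and less RNA per cell cannot be told apart. Of the called genes, 826 were higher and 682 lower by at least 4-fold, and 245 and 234 by at least 16-fold. The groups did not overlap for 1480 of the 1485 higher genes and for 1263 of the 1263 lower genes, nor did they for 57.6% of all tested genes or for 4240 of the 8384 similar genes. Similar genes held 87.5% of the counts in endoderm and 88.1% in Foxa2- CM. Genes called higher held 5.63% of the endoderm counts and 1.55% of the Foxa2- CM counts, and genes called lower held 1.23% and 4.83%. The count of lower genes fell to 806 without endoderm replicate 1.

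**Figure D1:**
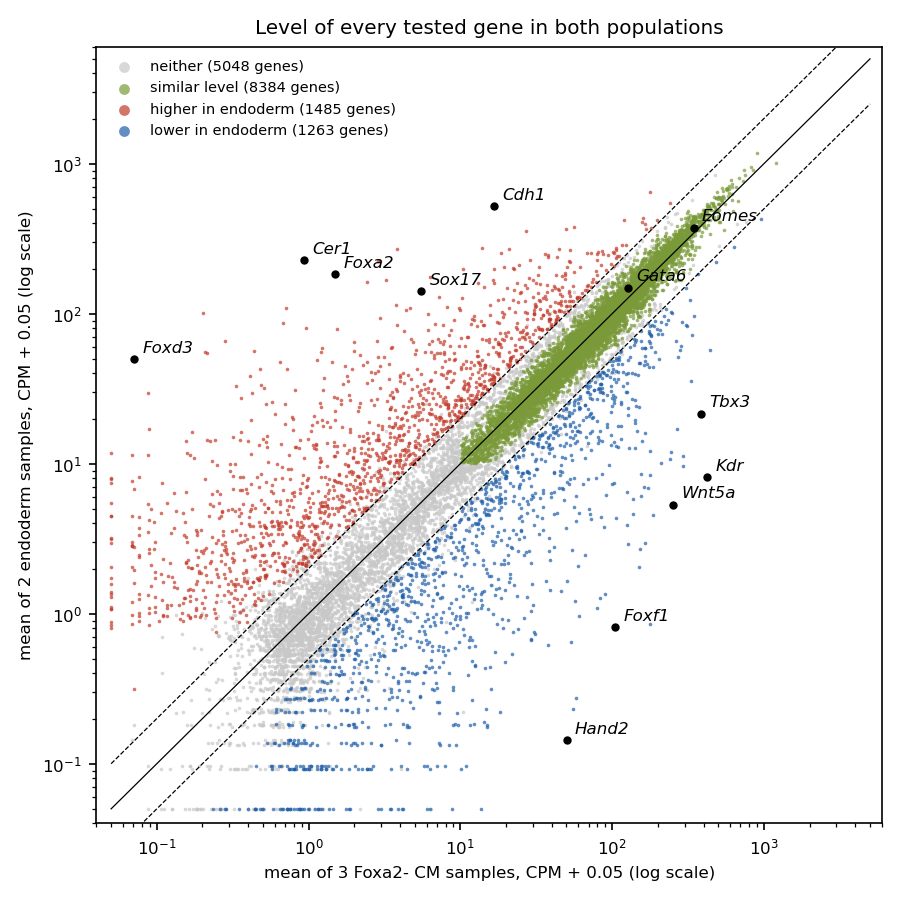
Mean level of each tested gene in Foxa2- CM (x axis) against endoderm (y axis), in CPM plus 0.05 on log axes, with genes called higher, called lower, at a similar level and neither in separate colours. The 1485 higher and 1263 lower genes lie off the diagonal on either side, and the 8384 similar genes lie along it above 10 CPM.

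The genes furthest above Foxa2- CM included factors of the epiblast, the organizer and the endoderm. The 15 called genes of largest rise were taken, provided that their mean count reached 50 and the groups did not overlap. First was Foxd3, a forkhead factor of pluripotent cells and neural crest, at 46.3 and 53.6 CPM in endoderm and 0.0619, 0 and 0 CPM in Foxa2- CM. Its divergent neighbour Gm12688, a long non-coding RNA gene whose start lies 1316 bases away, was second, at 13.8 and 9.79 CPM in endoderm and 0, 0 and 0 CPM in Foxa2- CM. Both were close to absent from every Foxa2- CM sample. Cer1, a secreted antagonist of Nodal, BMP and Wnt (chromosome 4 from 82881751 to 82885148, minus strand), stood at 227 and 231 CPM in endoderm and 0.743, 1.11 and 0.790 CPM in Foxa2- CM (log2FC 8.03, SE 0.31, adjusted p = 5.17e-07 in edgeR). Pkd1l1, a cilium protein of the node, stood at 102 and 101 CPM in endoderm and 0.186, 0.159 and 0.113 CPM in Foxa2- CM. Foxj1, the master regulator of motile cilia, stood at 67.3 and 44.8 CPM in endoderm and 0.371, 0.397 and 0.395 CPM in Foxa2- CM. Eras, a Ras-like gene of embryonic stem cells, stood at 59.8 and 50.4 CPM in endoderm and 0.124, 0.238 and 0.113 CPM in Foxa2- CM. Epithelial genes among the 15 were Marveld3, a tight junction protein, at 17.7 and 14.6 CPM in endoderm and 0.124, 0.238 and 0 CPM in Foxa2- CM, and Scel, a protein of cornified epithelium. For Scel, 679 counts in endoderm faced 2 in Foxa2- CM (695-fold, 95% interval 192 to 5753). This and the later intervals of count ratios cover counting error only, not the spread between samples. Cpn1, a carboxypeptidase subunit secreted by the liver, stood at 3.91 and 30.2 CPM in endoderm and 0.0619, 0 and 0.0564 CPM in Foxa2- CM. Slc27a2, a fatty acid transporter and ligase, stood at 101 and 116 CPM in endoderm and 0.557, 0.397 and 1.02 CPM in Foxa2- CM. Endoderm replicate 2 was the higher of the 2 for both of these, and all Foxa2- CM samples were below both. Nphs1, which encodes nephrin, had 258 counts in endoderm and 2 in Foxa2- CM (264-fold, 95% interval 72.4 to 2193), and Ccdc33 had 262 and 1 (536-fold, 95% interval 95.5 to 21272). The rest were Enpp3 (log2FC 8.25, SE 0.56), Samd3 (log2FC 8.18, SE 0.63) and Nfasc (log2FC 7.14, SE 0.52), the last a cell adhesion molecule of axons. All 15 kept their call in each of the 12 other fits.

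Genes furthest below Foxa2- CM included the transcription factors Hand2, Foxf1 and Hlx, beside genes of other roles. The lowest fitted values belonged to Tdo2, Rubie, A530016L24Rik and Ppp1r17, none of which had an endoderm count. Hand2, a basic helix-loop-helix factor needed for the right ventricle and outflow tract (chromosome 8 from 57320983 to 57324633, plus strand), stood at 0.186 and 0 CPM in endoderm and 40.2, 45.9 and 64.05 CPM in Foxa2- CM, with 2 counts in endoderm and 2363 in Foxa2- CM (577-fold, 95% interval 159.5 to 4767). Foxf1, a forkhead factor of lateral plate mesoderm, stood at 1.02 and 0.502 CPM in endoderm and 84.9, 101 and 128 CPM in Foxa2- CM (log2FC -7.10, SE 0.81, adjusted p = 6.82e-05 in edgeR). Fendrr, a long non-coding RNA of lateral mesoderm whose start lies 1276 bases from that of Foxf1 on the other strand, stood at 0.280 and 0.0837 CPM in endoderm and 39.5, 40.5 and 84.8 CPM in Foxa2- CM. Both genes of this divergent pair were lower, as both of the pair Foxd3 and Gm12688 were higher, and both overlap the annotated gene Gm20388. Hlx, a homeobox factor of visceral mesenchyme, stood at 0.280 and 0.167 CPM in endoderm and 57.4, 57.5 and 59.1 CPM in Foxa2- CM. Unc5c, a netrin receptor, stood at 1.02 and 0.586 CPM in endoderm and 98.6, 140.3 and 292 CPM in Foxa2- CM. For Unc5c, replicate 3 of Foxa2- CM was highest, and no endoderm sample reached any Foxa2- CM sample. Tdo2, which degrades tryptophan, had no count in endoderm and 658 in Foxa2- CM, which makes it at least 107-fold lower against a floor of 3 counts summed over the endoderm samples. By the same measure Rubie was at least 67.4-fold, A530016L24Rik at least 48.7-fold and Ppp1r17 at least 46.7-fold lower. With 1 count each in endoderm, the ratio was wide for Hoxb6 (255-fold, 95% interval 45.6 to 10106) and Hoxd9 (242-fold, 95% interval 43.2 to 9566), position-specifying homeobox genes, as well as Samsn1 (191-fold, 95% interval 34.2 to 7579.7), Pitx1 (152-fold, 95% interval 27.1 to 6037) and Sowahd (134-fold, 95% interval 23.8 to 5304). Fev, an ETS factor known from serotonin neurons, was the last of the 15 (log2FC -7.04, SE 1.44). The intervals of the count ratios leave out the spread between samples. In the edgeR fit, which holds it, the 95% interval of the log2 fold change was wider. It included 0 for Hoxb6 (-15.87 to 0.49), Samsn1 (-15.22 to 0.72) and Pitx1 (-13.98 to 0.14), and for Hand2 it was -14.54 to -3.49. Hoxb6, Samsn1 and Pitx1 lost their call when either endoderm sample was left out, and the other 12 kept it in each of 12 other fits. Because the library kit keeps no strand, reads of a gene and of an overlapping gene on the other strand cannot be told apart. On either strand, 15 of the 44 genes named by rule overlap another annotated gene. Of these, Pdgfra, Foxd3, Pkd1l1, Snora43 and Eef2 do so on the same strand only.

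Regulators and markers of definitive endoderm were mostly higher in endoderm, beside a small set at a similar level. Of 23 members tested, 17 were higher, none lower and 5 similar, and the median log2 fold change was 2.66 against 0.01 over all genes. The list holds Foxa2, whose difference the sort fixed, and without it 16 of 22 were higher, with a median of 2.24. Sox17, an HMG-box factor required for definitive endoderm (chromosome 1 from 4490931 to 4497354, minus strand), stood at 105 and 177 CPM in endoderm and 4.64, 3.17 and 8.58 CPM in Foxa2- CM (log2FC 4.67, SE 0.35, adjusted p = 2.75e-05 in edgeR). Foxa1, the paralog of Foxa2 that opens chromatin at endoderm genes (chromosome 12 from 57540628 to 57546916, minus strand), stood at 50.1 and 79.1 CPM in endoderm and 1.86, 1.98 and 1.98 CPM in Foxa2- CM (log2FC 5.05, SE 0.23). The third paralog, Foxa3, stood at 3.63 and 5.19 CPM in endoderm and 1.55, 0.873 and 1.47 CPM in Foxa2- CM (log2FC 1.75, SE 0.36). The anterior regulators Otx2 and Lhx1, which pattern anterior endoderm and the organizer, were also present in Foxa2- CM. Otx2 stood at 239.5 and 249.7 CPM in endoderm and 53.4, 44.4 and 15.5 CPM in Foxa2- CM (log2FC 2.70, SE 0.39). Lhx1 stood at 402 and 437 CPM in endoderm and 158, 150.2 and 49.4 CPM in Foxa2- CM (log2FC 1.82, SE 0.51) and lost its call without either endoderm sample. Both were lowest in replicate 3 of Foxa2- CM. Hhex, a homeobox factor of anterior endoderm and of blood vessel progenitors, stood at 64.01 and 98.04 CPM in endoderm and 19.9, 17.5 and 32.6 CPM in Foxa2- CM (log2FC 1.79, SE 0.27). Gsc, the organizer factor goosecoid, stood at 82.5 and 102 CPM in endoderm and 54.3, 44.5 and 28.8 CPM in Foxa2- CM (log2FC 1.12, SE 0.37), a change just past 2-fold whose call was lost in 7 of 12 other fits. Without endoderm replicate 2, Foxa3, Prdm1 and Spink1 lost their call, similar members numbered 2, and the lowest count of higher members in any fit was 12.

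Among members at a similar level was Eomes (chromosome 9 from 118478212 to 118486132, plus strand), at 404 and 347 CPM in endoderm and 345, 401 and 286 CPM in Foxa2- CM, with a 95% interval of the log2 fold change of -0.57 to 0.82. Mixl1, a homeobox factor of the primitive streak, stood at 238 and 221 CPM in endoderm and 226, 267 and 194 CPM in Foxa2- CM (interval -0.61 to 0.62). Gata6, a zinc finger factor of both endoderm and heart, stood at 117 and 181 CPM in endoderm and 130.5, 136 and 116 CPM in Foxa2- CM (interval -0.14 to 0.60). The chemokine receptor Cxcr4, often used to sort definitive endoderm, stood at 56 and 109.7 CPM in endoderm and 103, 117 and 96.2 CPM in Foxa2- CM (interval -0.87 to 0.18). The Wnt antagonist Dkk1 stood at 44.4 and 104 CPM in endoderm and 93.99, 96.05 and 64.7 CPM in Foxa2- CM (interval -0.86 to 0.47). The groups overlapped for all 5. Without endoderm replicate 2, the log2 fold change was -0.92 for Cxcr4 and -0.94 for Dkk1, and Eomes, Cxcr4 and Dkk1 were no longer shown to be similar. The authors removed duplicate reads, which leaves at most 2 reads per exonic base, and the highest density of these genes in any of the 5 samples was 1.59 counts per base for Mixl1 and 1.34 for Eomes, near that ceiling, against 0.333 for Gata6. Similarity was also lost for Cxcr4 with a correction for this ceiling, for Eomes without Foxa2- CM replicate 2 and for Dkk1 without Foxa2- CM replicate 3.

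**Figure D2:**
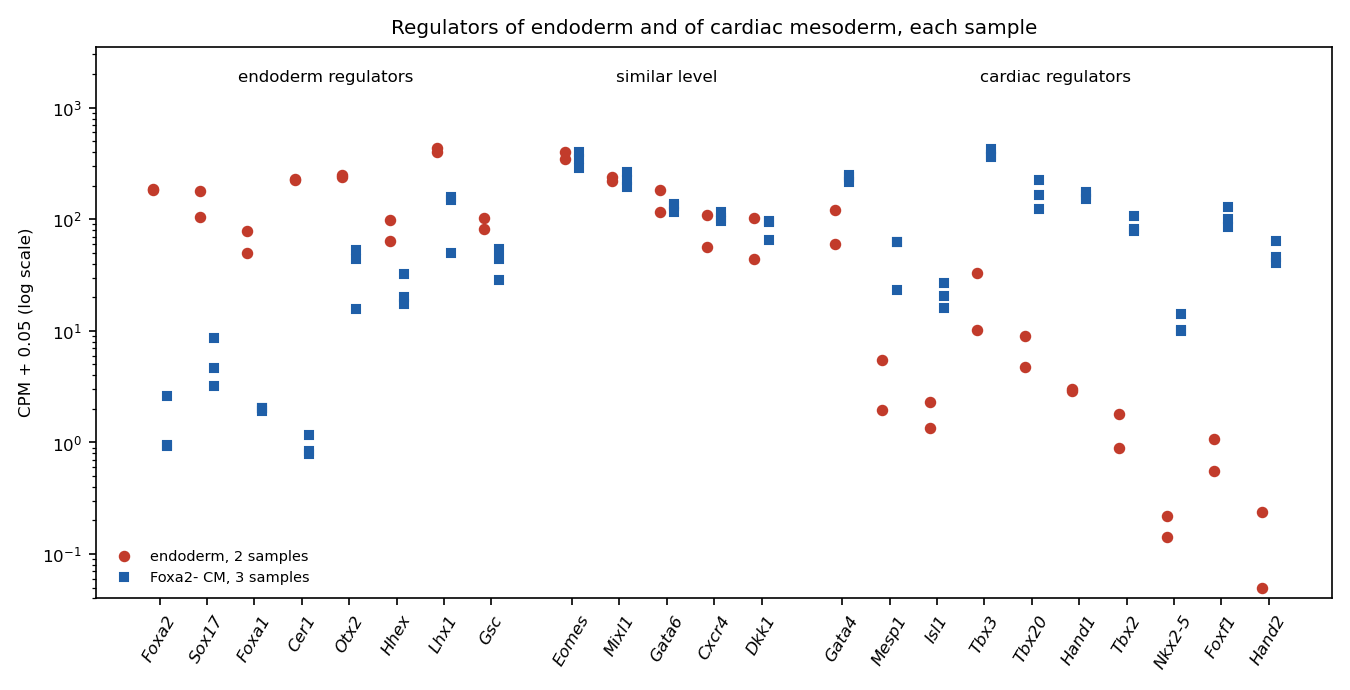
Level of 23 genes in each of the 2 endoderm and 3 Foxa2- CM samples, in CPM plus 0.05 on a log axis, grouped as endoderm regulators, genes at a similar level and cardiac regulators, with samples as single points. Levels compare within a gene only, since CPM is not divided by gene length. Endoderm points lie above for Sox17 and Foxa1, below for Hand2 and Foxf1, and overlap the Foxa2- CM points for Eomes and Mixl1.

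Markers of visceral endoderm, the extraembryonic layer that shares many genes with definitive endoderm, gave no common direction. Of 18 tested, 2 were higher, 3 lower and 1 similar, with a median of 0.07. Hnf4a, a nuclear receptor of visceral endoderm and liver, stood at 6.06 and 27.5 CPM in endoderm and 0.0619, 0.0794 and 2.09 CPM in Foxa2- CM (log2FC 4.39, SE 0.99). Apob, the main protein of lipoprotein particles, stood at 5.31 and 19.7 CPM in endoderm and 0.557, 0.159 and 17.4 CPM in Foxa2- CM (log2FC 1.03, SE 1.33), which was not called. Afp, a secreted protein that defines visceral endoderm, was near 0 in all samples, at 0 and 0.920 CPM in endoderm and 0, 0.0794 and 1.24 CPM in Foxa2- CM. Another such protein, Ttr, stood at 0.373 and 1.76 CPM in endoderm and 0.0619, 0 and 1.86 CPM in Foxa2- CM. Endoderm replicate 2 was above replicate 1, and Foxa2- CM replicate 3 above the other Foxa2- CM samples, for each of these. These counts turned on single samples. Without endoderm replicate 1, 1 member was lower and the median was 0.64. Without endoderm replicate 2, 1 was higher, Hnf4a lost its call, none was similar and the median was -0.96. Without replicate 3 of Foxa2- CM, 6 members were higher, and the median was -0.31 without replicate 1 and -0.23 without replicate 2.

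Promoters of genes from both directions and of a similar gene are shown because the text turns on these regulators and because Foxa factors bind a forkhead motif. Each runs from 250 bases before to 50 after the RefSeq start, 5′ to 3′ on the gene's strand, on GRCm38.p6, the patched form of mm10. Capitals mark the only matches, on either strand, to 6 exact strings searched, for forkhead, GATA, T-box, homeodomain and SOX factors and for the TATA box, each spelled out beside its frequency.
Foxa1, chr12:57546062-57546361, minus strand: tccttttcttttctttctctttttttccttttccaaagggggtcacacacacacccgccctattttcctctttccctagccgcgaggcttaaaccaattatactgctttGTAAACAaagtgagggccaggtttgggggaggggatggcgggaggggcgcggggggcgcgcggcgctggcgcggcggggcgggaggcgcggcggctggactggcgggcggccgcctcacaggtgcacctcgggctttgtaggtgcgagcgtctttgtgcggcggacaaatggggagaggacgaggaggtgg
Cer1, chr4:82885102-82885401, minus strand: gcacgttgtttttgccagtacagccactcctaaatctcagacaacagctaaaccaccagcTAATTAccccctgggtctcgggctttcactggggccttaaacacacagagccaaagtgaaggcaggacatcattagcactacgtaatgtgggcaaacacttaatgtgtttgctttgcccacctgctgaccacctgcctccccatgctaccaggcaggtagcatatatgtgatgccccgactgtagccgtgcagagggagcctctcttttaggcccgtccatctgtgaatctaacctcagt
Hand2, chr8:57320733-57321032, plus strand: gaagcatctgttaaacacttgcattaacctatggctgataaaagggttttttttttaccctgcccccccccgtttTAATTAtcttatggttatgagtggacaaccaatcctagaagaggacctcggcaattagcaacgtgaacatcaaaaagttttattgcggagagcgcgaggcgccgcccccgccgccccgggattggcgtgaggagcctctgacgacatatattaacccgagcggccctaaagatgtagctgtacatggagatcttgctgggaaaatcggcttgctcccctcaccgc
Eomes, chr9:118477939-118478238, plus strand: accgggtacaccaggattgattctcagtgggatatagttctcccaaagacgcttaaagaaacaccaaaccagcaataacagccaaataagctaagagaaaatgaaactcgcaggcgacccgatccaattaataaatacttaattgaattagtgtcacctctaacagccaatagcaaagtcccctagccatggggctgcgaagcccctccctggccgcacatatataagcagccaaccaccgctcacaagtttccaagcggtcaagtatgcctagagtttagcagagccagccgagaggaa
The Foxa1 promoter holds the forkhead string on the opposite strand at base 110. Cer1 and Hand2 hold the homeodomain string at bases 61 and 76, and Eomes holds none of the 6. Among 11567 tested genes with a RefSeq promoter, the forkhead string (TGTTTAC) occurred in 3.05% of all, 3.76% of higher, 2.76% of lower and 2.87% of similar genes. The 11567 genes had 14779 promoters, and a gene counted when any of its promoters held the string. The homeodomain string (TAATTA), the same on both strands, occurred in 3.36% of all, 5.6% of higher, 4.37% of lower and 2.79% of similar genes. The ratio of observed to expected CpG was averaged over the promoters of each gene. It was at least 0.6 for 67.8% of all, 48.6% of higher, 47.9% of lower and 81.9% of similar genes. Similar genes were required to reach 10 CPM in both groups, and among genes at that level the CpG shares were 71.5% of higher and 59.7% of lower genes. At that level the motif shares rest on few genes, so no order is read from them. The forkhead string occurred in 7 of 274 higher genes (2.55%) and 8 of 221 lower genes (3.62%). The homeodomain string occurred in 8 higher genes (2.92%) and 9 lower genes (4.07%). These shares are descriptions of short windows and of exact strings.

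Cardiac regulators were lower in endoderm in 15 of 24 members tested, with 1 higher and 1 similar, and their median log2 fold change was -2.01. Hand1, the partner of Hand2 in the left ventricle, stood at 2.98 and 2.84 CPM in endoderm and 151, 177 and 164 CPM in Foxa2- CM (log2FC -5.81, SE 0.51, adjusted p = 4.13e-05 in edgeR). Nkx2-5, the earliest homeobox factor of the heart field, had 3 counts in endoderm and 535 in Foxa2- CM (87.1-fold, 95% interval 29.6 to 424). Isl1, a factor of the second heart field, stood at 1.30 and 2.26 CPM in endoderm and 16.1, 20.4 and 26.6 CPM in Foxa2- CM (log2FC -3.55, SE 0.49). Each of these was low or nearly absent in both endoderm samples. Mesp1, which marks the first cardiac progenitors, stood at 5.40 and 1.92 CPM in endoderm and 61.98, 62.95 and 23.2 CPM in Foxa2- CM (log2FC -3.76, SE 0.81), and lost its call without endoderm replicate 2. Gata4, a zinc finger factor of heart and endoderm, differed less, at 60.2 and 122 CPM in endoderm and 238, 250.4 and 215 CPM in Foxa2- CM (log2FC -1.36, SE 0.33), and lost its call without endoderm replicate 1. The T-box genes Tbx2, Tbx3 and Tbx20, which repress or promote chamber genes, had log2 fold changes of -6.08, -4.15 and -4.64. Tbx20 stood at 4.66 and 8.95 CPM in endoderm and 124, 164 and 227 CPM in Foxa2- CM. Tbx5, a regulator of the left ventricle and atria, had 3 counts in endoderm and 53 in Foxa2- CM (8.63-fold, 95% interval 2.80 to 43.2) and was called in 8 of 12 other fits. Nr2f2, a nuclear receptor of atria and foregut also known as COUP-TFII, was the 1 member higher in endoderm, at 0.932 and 3.68 CPM in endoderm and 0.186, 0.318 and 0.282 CPM in Foxa2- CM (log2FC 3.13, SE 0.66), a call lost without endoderm replicate 2. Myocd, the coactivator myocardin, was not called, at 2.98 and 8.78 CPM against 4.52, 5.24 and 6.26 CPM. Tbx5 lost its call without endoderm replicate 1 and without Foxa2- CM replicate 3, and 2 members were similar without endoderm replicate 1.

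Genes of the sarcomere went both ways, with 5 higher, 6 lower and 2 similar of 20 tested and a median of 0.16. Lower in endoderm were Tnnt2, cardiac troponin T, at 0 and 0.418 CPM in endoderm and 8.48, 6.59 and 5.92 CPM in Foxa2- CM (log2FC -4.95, SE 0.94), Tnni1 and Myl4, embryonic forms of troponin I and myosin light chain, with log2 fold changes of -4.88 and -3.74. Higher in endoderm was Myh7, the slow myosin heavy chain, at 2.52 and 8.28 CPM in endoderm and 0.0619, 0.0794 and 0.0564 CPM in Foxa2- CM (log2FC 6.21, SE 0.94), and also Nebl (log2FC 3.86, SE 0.55) and Myh6 (log2FC 2.25, SE 0.39), a thin filament protein and the fast cardiac myosin heavy chain. Myh6 and Myh7 are paralogs whose near-identical stretches short reads may not separate. Without endoderm replicate 1 the lower members numbered 3, and the median was -0.0021 without Foxa2- CM replicate 2 and -0.012 with DESeq2.

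Of 26 genes of nascent, paraxial and lateral plate mesoderm, 15 were lower and 1 was higher, with a median of -1.60. Cdx2, a homeobox factor of the posterior body, stood at 0.652 and 1.67 CPM in endoderm and 40.8, 52.8 and 77.1 CPM in Foxa2- CM (log2FC -5.58, SE 0.78). Meox1, a somite homeobox factor, stood at 0.839 and 0.753 CPM in endoderm and 5.88, 7.54 and 14.7 CPM in Foxa2- CM. Tbx6, which specifies paraxial mesoderm, stood at 5.78 and 3.18 CPM in endoderm and 19.4, 15.1 and 9.54 CPM in Foxa2- CM (log2FC -1.72, SE 0.47). T, or brachyury, the streak T-box factor, was not called, at 178 and 131 CPM against 103, 98.6 and 81.1 CPM. Tcf15, a somite factor also made in epiblast cells, was the 1 member that was higher (log2FC 2.01, SE 0.41), a call lost without endoderm replicate 2. The number of lower members was 6 without endoderm replicate 1, 7 without replicate 2 and 9 with DESeq2. Tbx6 and Meox1 lost their call without either endoderm sample, and Tbx6 also without Foxa2- CM replicate 1 or 2.

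Transcription factor families split in different ways. Among 20 Hox genes tested, 19 were lower in endoderm and none was higher, with a median of -4.78, or -4.65 with the 4 genes without endoderm counts set at their bound. Another 18 of the 38 Hox genes did not pass the expression filter. All 38 summed to 4.845 and 14.3 CPM in endoderm and 94.3, 97.48 and 191.9 CPM in Foxa2- CM. A gene could pass the filter through any group where it was high, so the direction among those tested is a description and not a test. Hoxb1, the most 3′ gene of its cluster, stood at 1.58 and 6.11 CPM in endoderm and 34.1, 25.8 and 32.2 CPM in Foxa2- CM. Its neighbour Hoxb2 stood at 0 and 1.51 CPM in endoderm and 7.37, 6.43 and 13.04 CPM in Foxa2- CM (log2FC -3.51, SE 0.99). Hoxa11 was at least 32.7-fold and Hoxb5 at least 22.5-fold lower, with no endoderm count for either. Another annotated gene overlaps 10 of the 20. The number lower was 6 without endoderm replicate 1, 9 without endoderm replicate 2 and 12 without Foxa2- CM replicate 3. T-box genes were lower in 6 of 10 and higher in none, with Eomes similar, and 3 were lower without endoderm replicate 1. Eomes no longer passed as similar without endoderm replicate 2 or Foxa2- CM replicate 2. Gata2, Gata3 and Gata4 were lower, at -6.07, -3.05 and -1.36, beside Gata6 at a similar level. Fox genes were higher in 12 of 32, lower in 4 and similar in 11. Without Foxa2, a gene of the gate, 11 of 31 were higher. The number lower was 2 without either endoderm sample and without Foxa2- CM replicate 3. The lower Fox genes were Foxf1, Foxf2, Foxc2 and Foxd1, known from mesenchyme, while the similar ones included Foxh1, the partner of Smad2, and Foxk1, Foxm1 and Foxo3, made in most cells. Within this family, Foxd1 (-2.84) and Foxd3 (10.70) stood on opposite sides, but Foxd1 rested on few counts. It had 2 counts in endoderm and 32 in Foxa2- CM (7.81-fold, 95% interval 1.99 to 67.3). Sox genes were higher in 7 of 17 and lower in 5. Sox17 and its F-group paralogs Sox7 and Sox18 stood on opposite sides too. Sox7 stood at 0.373 and 1.34 CPM in endoderm and 8.42, 9.53 and 43.6 CPM in Foxa2- CM. Sox18 stood at 0.466 and 1.17 CPM in endoderm and 4.15, 3.65 and 17.7 CPM in Foxa2- CM. Both were highest in Foxa2- CM replicate 3 and lost their call without either endoderm sample. Sox2, a pluripotency and neural factor, stood at 90.9 and 102 CPM in endoderm and 9.47, 13.9 and 13.3 CPM in Foxa2- CM (log2FC 2.99, SE 0.22). Without endoderm replicate 2, 4 Sox genes were higher and 2 lower, and 3 were lower without endoderm replicate 1. Of the single genes above, Hoxb1, Hoxb2, Foxf2 and Gata4 lost their call without endoderm replicate 1, Foxc2 without endoderm replicate 2 or Foxa2- CM replicate 3, Hoxb5 without either endoderm sample, and Foxd1 without either of them or without Foxa2- CM replicate 3.

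Epithelial junction and keratin genes formed one of the larger groups higher in endoderm, with 23 of 34 higher, 1 lower and 6 similar and a median of 2.05. Cdh1, which encodes E-cadherin (chromosome 8 from 106603351 to 106670246, plus strand), stood at 545 and 493 CPM in endoderm and 16.6, 16.5 and 16.7 CPM in Foxa2- CM (log2FC 4.96, SE 0.12, adjusted p = 1.34e-07 in edgeR), nearly equal within each group. Among claudins, the strand-forming proteins of tight junctions, 7 of 12 were higher and 1 lower, and another 11 of the 23 did not pass the expression filter. Cldn6, a claudin of embryonic epithelia, stood at 154 and 169.5 CPM in endoderm and 1.55, 1.27 and 4.29 CPM in Foxa2- CM (log2FC 6.04, SE 0.37), and Cldn3 and Cldn7 had log2 fold changes of 6.54 and 4.19. Ocln, or occludin, stood at 23.9 and 27.8 CPM in endoderm and 0.681, 0.318 and 0.564 CPM in Foxa2- CM. Crb3, an apical polarity protein, stood at 27.9 and 36.4 CPM in endoderm and 0.371, 0.556 and 0.452 CPM in Foxa2- CM. Grhl2 and Esrp1, a transcription factor and a splicing factor that maintain epithelia, had log2 fold changes of 3.16 and 2.60. The keratins Krt8 and Krt18, which pair in simple epithelia, were both similar. Krt8 stood at 73.6 and 86.6 CPM in endoderm and 71.5, 86.05 and 73.1 CPM in Foxa2- CM. Krt18 stood at 90.3 and 109 CPM in endoderm and 92.5, 109 and 109 CPM in Foxa2- CM. Krt19 was lower (log2FC -1.49, SE 0.32), although its call was lost without endoderm replicate 1, and Krt7 was higher (log2FC 6.23, SE 0.63). The desmosome genes Dsg2 and Jup and the tight junction scaffold Tjp1 were similar, at 0.12, 0.58 and 0.54. Members lower numbered 2 without endoderm replicate 2, and no claudin was lower without endoderm replicate 1.

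Mesenchymal genes were lower in 15 of 23 and higher in none, with 5 similar, or 3 without either endoderm sample, and a median of -1.16. The transition factors Snai1, Twist1, Zeb1 and Zeb2, repressors or activators that lower E-cadherin, had log2 fold changes of -1.30, -1.16, -3.12 and -1.65, but Snai1 lost its call without endoderm replicate 2 and Twist1 without endoderm replicate 1. Zeb1 stood at 2.98 and 11.5 CPM in endoderm and 49.3, 49.6 and 92.8 CPM in Foxa2- CM. Tgfb2, a ligand that drives the transition in heart cushions, stood at 2.98 and 9.87 CPM in endoderm and 87.99, 120.1 and 165 CPM in Foxa2- CM. N-cadherin (Cdh2), often described as the mesenchymal counterpart of E-cadherin, was similar at 238 and 278 CPM in endoderm and 181, 206 and 167 CPM in Foxa2- CM (interval 0.08 to 0.88), as was vimentin (Vim) with an interval of -0.78 to 0.02. Of 35 collagens, 4 were higher and 14 lower, but 4 were lower without endoderm replicate 1, 9 without replicate 2 and 8 without Foxa2- CM replicate 3, and 2 were higher without endoderm replicate 2. Col1a1, a fibrillar chain, stood at 2.42 and 1.59 CPM in endoderm and 79.4, 103 and 270 CPM in Foxa2- CM, highest in Foxa2- CM replicate 3, and Col2a1 was higher in endoderm (log2FC 2.47, SE 0.43). Laminins were lower in 4 of 11 and higher in 1, or higher in none without endoderm replicate 2 and in 2 without Foxa2- CM replicate 3. Lama1, the embryonic basement membrane chain, was lower at 8.95 and 15.7 CPM in endoderm and 59.1, 58.4 and 98.98 CPM in Foxa2- CM (log2FC -2.54, SE 0.39), while Lamb1, Lamc1 and Lama5 were not called, at 0.76, 0.81 and 0.82. Integrins were higher in 3 and lower in 6 of 24, or lower in 1 and 3 without endoderm replicates 1 and 2. The number higher was 1 without endoderm replicate 1, Foxa2- CM replicate 1 or Foxa2- CM replicate 2. Itgb1 and Itgav, subunits of fibronectin receptors, were similar.

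In the Nodal and Activin pathway, 6 of 24 genes were higher, 1 lower and 13 similar, with a median of 0.38. The similar share of 54.2% was close to the 51.8% of all tested genes, while 25% were higher against 9.18%. All 6 higher members encode secreted proteins, and the receptors and Smad genes were mostly similar. Nodal itself was not called, at 101 and 128 CPM in endoderm and 33.9, 28.02 and 30.8 CPM in Foxa2- CM (log2FC 1.89, SE 0.68, adjusted p = 0.0621 in edgeR), although the groups did not overlap. Inhbb, an Activin subunit, was higher (log2FC 3.63, SE 0.71), and Gdf3, a Nodal-like ligand, had 68 counts in endoderm and none in Foxa2- CM (at least 46.4-fold higher). The feedback inhibitors Lefty1 and Lefty2 were higher. Lefty1 stood at 154 and 181 CPM in endoderm and 3.71, 3.57 and 2.26 CPM in Foxa2- CM (log2FC 5.73, SE 0.34). Lefty2 stood at 119 and 214 CPM in endoderm and 39.1, 31.6 and 19.9 CPM in Foxa2- CM (log2FC 2.47, SE 0.40). Fst, the Activin-binding follistatin, had a log2 fold change of 2.09. The receptors Acvr1b, Acvr2a and Acvr2b, the transducers Smad2, Smad3 and Smad4 and the cofactor Foxh1 were all similar, with log2 fold changes from -0.25 to 0.40. Smad3 passed as similar in only 8 of 12 other fits. Smad2 stood at 89.2 and 96.6 CPM in endoderm and 105, 109.5 and 102 CPM in Foxa2- CM (interval -0.33 to -0.04). The 2 populations differed by design in the Activin A they were given. Without endoderm replicate 1 no member was lower, and Inhbb lost its call without endoderm replicate 2.

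BMP pathway genes were lower in 13 of 29, higher in 3 and similar in 8, with a median of -0.78. Ligands were among the lower ones. Bmp4, a mesoderm inducer that was also added to the cardiac cultures as protein, stood at 5.68 and 3.51 CPM in endoderm and 124, 144 and 143 CPM in Foxa2- CM (log2FC -4.90, SE 0.18), and Bmp5 and Bmp6 had log2 fold changes of -4.26 and -3.48. Bmp2 was similar at 41.5 and 67.3 CPM in endoderm and 63.9, 65.4 and 73.9 CPM in Foxa2- CM (interval -0.92 to 0.29), and passed as similar in only 8 of 12 other fits. Antagonists split, with Chrd, or chordin, higher at 251 and 198 CPM in endoderm and 3.22, 2.06 and 3.44 CPM in Foxa2- CM (log2FC 6.24, SE 0.21). Nog, or noggin, was lower at 0.466 and 1.42 CPM in endoderm and 7.62, 6.67 and 6.21 CPM in Foxa2- CM (log2FC -2.82, SE 0.40). Target genes split as well. Msx1, Msx2 and Smad6 were lower, at -1.59, -3.87 and -1.86, whereas Id1 and Id2 were not called, at -0.59 and -0.78, and Id3 was similar at -0.16. Id1 stood at 28.3 and 53.9 CPM in endoderm and 66.6, 72.1 and 47.9 CPM in Foxa2- CM. The receptors Bmpr1a, Bmpr2 and Acvr1 and the transducers Smad1 and Smad5 were similar, and Smad9 was lower at 0.373 and 0.418 CPM in endoderm and 11.3, 10.8 and 15.01 CPM in Foxa2- CM. The endothelial receptors Acvrl1 and Eng were lower, beside the haemato-endothelial sums given above. Bmp6 lost its call without endoderm replicate 1.

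**Figure D3:**
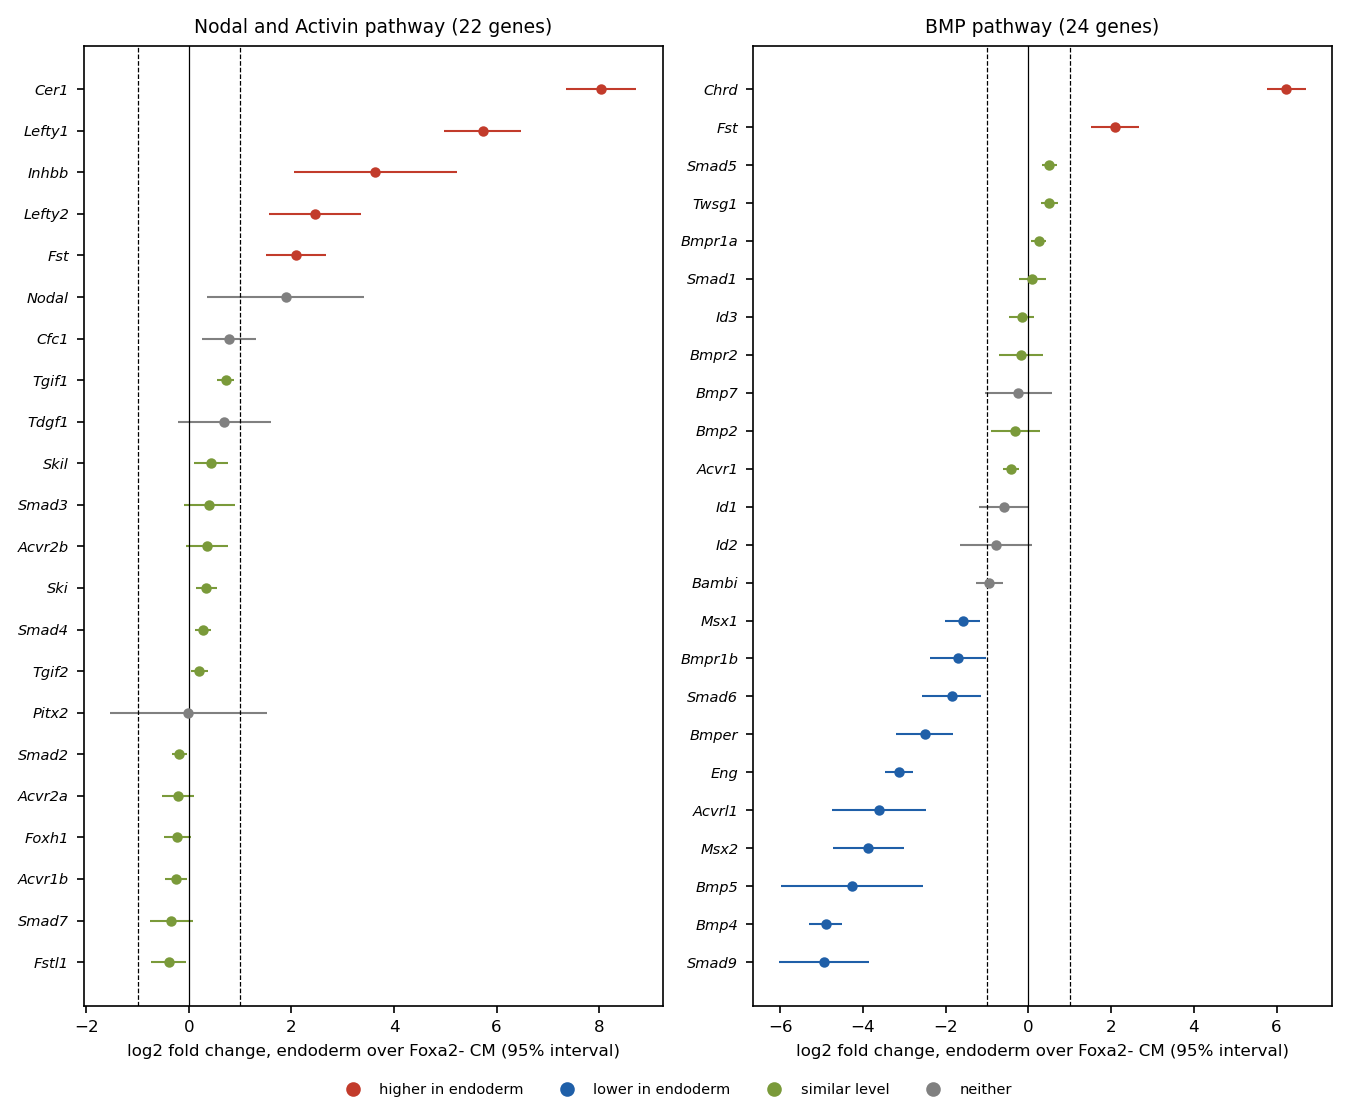
Log2 fold change of endoderm relative to Foxa2- CM with its 95% interval for 22 genes of the Nodal and Activin pathway and 24 genes of the BMP pathway that reached 10 CPM in at least 1 group, with dotted lines at 2-fold. The receptors and Smad genes called similar lie near 0 in both pathways. Lefty1 and Cer1 lie to the right, and Bmp4, Bmp5 and Smad9 to the left.

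In the Wnt pathway, 15 of 49 genes were higher, 10 lower and 10 similar, with a median of 0.11. The lower ligands included Wnt5a, a non-canonical ligand of migrating mesoderm, at 5.87 and 4.68 CPM in endoderm and 225, 264 and 262 CPM in Foxa2- CM (log2FC -5.57, SE 0.29), and Wnt2, Wnt4 and Wnt5b at -6.02, -5.46 and -1.73. The higher ligands included Wnt3a and Wnt8a, canonical streak ligands. Wnt3a stood at 13.8 and 3.01 CPM in endoderm and 0.867, 0.714 and 1.02 CPM in Foxa2- CM. Wnt8a stood at 93.4 and 75.7 CPM in endoderm and 5.20, 4.05 and 2.14 CPM in Foxa2- CM. Wnt3 was similar. The secreted antagonists Sfrp1 and Sfrp5 were higher, with Sfrp1 at 205 and 339.5 CPM in endoderm and 13.6, 14.4 and 13.6 CPM in Foxa2- CM (log2FC 4.30, SE 0.22). Sfrp5, a marker of foregut endoderm, stood at 19.7 and 83.2 CPM in endoderm and 2.66, 2.30 and 4.34 CPM in Foxa2- CM, where replicate 2 was the higher endoderm sample. The antagonist Dkk2 had 1 count in endoderm and 279 in Foxa2- CM (136-fold, 95% interval 24.3 to 5400.3). Receptors divided. Fzd5 was higher at 166 and 378 CPM in endoderm and 20.5, 22.9 and 19.6 CPM in Foxa2- CM. Fzd8 was higher at 89.3 and 139.9 CPM in endoderm and 4.83, 3.73 and 2.60 CPM in Foxa2- CM. Fzd4 was lower (log2FC -2.84, SE 0.41), and Fzd1, Fzd7, Fzd10, Lrp5 and Lrp6 were similar. Axin2, a feedback target of canonical signalling, was not called, at 147 and 122 CPM against 190.4, 201 and 187 CPM. Without endoderm replicate 2 the median of the list was -0.09, and Dkk2 lost its call without either endoderm sample.

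Of 30 genes of the FGF pathway, 8 were higher, 3 lower and 7 similar, with a median of 0.70. Fgf5, an epiblast ligand, stood at 259 and 247 CPM in endoderm and 24.8, 20.1 and 10.6 CPM in Foxa2- CM (log2FC 3.78, SE 0.34), and Fgf17 had a log2 fold change of 4.62. Fgf8, which is needed for cells to leave the streak, stood at 123 and 146 CPM in endoderm and 49.97, 48.4 and 38.5 CPM in Foxa2- CM (log2FC 1.56, SE 0.22). Fgf10, a ligand of the second heart field, and Fgf3 were lower, at -1.29 and -4.28. The receptor Fgfr1 was similar at 310.5 and 317 CPM in endoderm and 298, 334 and 336 CPM in Foxa2- CM, and Fgfr3 was lower (log2FC -2.51, SE 0.50). Spry2, a feedback inhibitor, was higher (1.45), while Dusp6, Etv4 and Spry4, other targets, were not called at 1.00, 0.87 and 0.83. Without endoderm replicate 1, 1 member was lower and 3 were similar, and Fgf10 and Fgfr3 lost their call.

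Among 18 genes of retinoic acid metabolism and response, 2 were higher (11.1%), 4 lower (22.2%) and 7 similar (38.9%). Over all tested genes these shares were 9.18%, 7.81% and 51.8%. Aldh1a2, which makes retinoic acid in lateral mesoderm, stood at 0.652 and 1.17 CPM in endoderm and 6.19, 9.21 and 12.4 CPM in Foxa2- CM (log2FC -3.32, SE 0.55). Cyp26b1, which degrades it, stood at 0.186 and 0.335 CPM in endoderm and 12.2, 7.38 and 6.998 CPM in Foxa2- CM. Stra6, a retinol transporter, was higher at 17.1 and 49.6 CPM in endoderm and 0.433, 0.0794 and 0.790 CPM in Foxa2- CM (log2FC 6.15, SE 0.68), as was Dhrs3, which returns retinal to retinol (log2FC 2.61, SE 0.45). The receptors Rara, Rarg, Rxra and Rxrb were similar. Hedgehog genes were lower in 4 of 15 (26.7%), higher in none and similar in 6 (40%). The lower ones included the coreceptors Boc and Gas1 and the target Gli1, at -2.76, -1.36 and -1.08. Notch genes were higher in 4 of 20 (20%) and lower in 1 (5%). The ligand Jag1 stood at 185 and 269 CPM in endoderm and 27.1, 26.3 and 33.5 CPM in Foxa2- CM (log2FC 2.97, SE 0.25), the target Hey2 was lower (log2FC -2.66, SE 0.46), and Notch2, Notch3, Rbpj and Hes1 were similar. Gli1 lost its call without Foxa2- CM replicate 1, where 2 Notch genes were lower.

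Axon guidance molecules, which also steer migrating cells, went both ways, with 12 higher, 10 lower and 11 similar of 39. Ligands and receptors were found in both directions. Ntn1, or netrin 1, stood at 200.4 and 252 CPM in endoderm and 3.03, 2.70 and 2.71 CPM in Foxa2- CM (log2FC 6.32, SE 0.45). Slit2 stood at 122 and 100.2 CPM in endoderm and 6.19, 6.91 and 11.3 CPM in Foxa2- CM. Sema3c stood at 4.19 and 3.85 CPM in endoderm and 0.0619, 0.0794 and 0.169 CPM in Foxa2- CM. Ligands that were lower were Sema3a, Efna1, Efnb1 and Efnb3, at -1.87, -1.09, -1.30 and -1.23. Of the receptors, Plxna2, a semaphorin receptor, was higher (1.13). Lower receptors included Unc5c, described above, and Robo2, a Slit receptor with a log2 fold change of -2.41 whose call was lost without endoderm replicate 2. Nrp1, a coreceptor of semaphorins and VEGF, stood at 34.2 and 111 CPM in endoderm and 298, 350.3 and 366 CPM in Foxa2- CM. Its paralog Nrp2 stood at 8.76 and 10.4 CPM in endoderm and 262, 298 and 314 CPM in Foxa2- CM. Unc5b, another netrin receptor, was similar, and Robo1 was not called. Among Eph receptors, Epha1, Epha2 and Epha7 were higher, at 2.67, 2.74 and 3.63, and Epha4, Ephb2, Ephb3 and Ephb4 were similar. Of 21 migration genes, 4 were higher, 6 lower and 5 similar, or 2 similar without endoderm replicate 2. The lower ones include Pdgfra, a gene of the gate, and without it 5 of 20 were lower. The apelin receptor ligands Apela and Apln were higher. Apela stood at 1.68 and 1.92 CPM in endoderm and 0.124, 0.159 and 0.395 CPM in Foxa2- CM. Apln stood at 189.9 and 129.7 CPM in endoderm and 17.7, 14.1 and 7.28 CPM in Foxa2- CM. Their receptor Aplnr was not called, at 169 and 69.8 CPM in endoderm and 83.2, 87.5 and 137 CPM in Foxa2- CM. Cxcl12, the ligand of Cxcr4, stood at 122 and 57.97 CPM in endoderm and 6.44, 9.61 and 10.9 CPM in Foxa2- CM (log2FC 3.33, SE 0.42). S1pr1, a sphingosine phosphate receptor, was lower at 0.559 and 0.418 CPM in endoderm and 15.8, 17.6 and 32.3 CPM in Foxa2- CM (log2FC -5.48, SE 0.64).

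Lists that mark other cell types also differed. Haemato-endothelial markers were lower in 14 of 27 and higher in 2, with a median of -3.14. Tal1, a blood and endothelial factor, stood at 0.839 and 1.004 CPM in endoderm and 45.5, 34.9 and 101 CPM in Foxa2- CM. Etv2, which specifies both lineages, stood at 6.80 and 7.95 CPM in endoderm and 106, 113 and 91.1 CPM in Foxa2- CM (log2FC -3.80, SE 0.15). Tie1 and Cdh5, endothelial surface proteins, were not called. Tie1 stood at 0 and 0 CPM in endoderm and 0.248, 0.397 and 18.5 CPM in Foxa2- CM. Cdh5 stood at 0.652 and 2.34 CPM in endoderm and 2.85, 1.98 and 43.4 CPM in Foxa2- CM. Replicate 3 of Foxa2- CM was far above the other samples for both. The number lower was 14 without that sample, 8 without endoderm replicate 1 and 13 of 26 without Kdr, a gene of the gate. Flt1, a VEGF receptor, and Hhex were the higher members, with Flt1 at 251 and 460 CPM in endoderm and 11.5, 18.2 and 50.9 CPM in Foxa2- CM. Pluripotency and epiblast genes were higher in 11 of 27 and lower in 5, or 3 without endoderm replicate 1. Nanog stood at 162 and 156 CPM in endoderm and 35.9, 35.2 and 23.5 CPM in Foxa2- CM (log2FC 2.34, SE 0.17). Pou5f1, also called Oct4, stood at 118 and 107 CPM in endoderm and 57.9, 63.2 and 36.6 CPM in Foxa2- CM (log2FC 1.09, SE 0.30), a call lost in 4 of 12 other fits. Prdm14, a naive pluripotency and germ cell factor, was lower, with 3 counts in endoderm and 394 in Foxa2- CM (64.1-fold, 95% interval 21.8 to 312). Zfp42 and Esrrb, markers of naive cells, were at a few CPM or less in all samples. Zfp42 was lower, at 2.05 and 2.26 CPM in endoderm and 5.94, 5.79 and 4.68 CPM in Foxa2- CM. Esrrb was not called, at 0.745 and 2.68 CPM in endoderm and 1.61, 1.11 and 3.33 CPM in Foxa2- CM. Of 14 neural and surface ectoderm markers tested, 9 were higher and 1 lower, among them the anterior factors Six3 and Hesx1 as higher members. Another 12 of the 26 listed did not pass the expression filter, which a gene could pass through endoderm alone. Six3 stood at 4.01 and 5.52 CPM in endoderm and 0, 0.0794 and 0.169 CPM in Foxa2- CM. Hesx1 stood at 3.17 and 7.45 CPM in endoderm and 0, 0 and 0.113 CPM in Foxa2- CM. The defining neural gene Sox1 was low in both groups, at 0.0932 and 1.84 CPM against 0.310, 0.318 and 0.282 CPM. Genes of axial mesendoderm and the node were higher in 10 of 15 and lower in 1, or 2 without endoderm replicate 2 or Foxa2- CM replicate 1, with a median of 5.74. Without Foxa2, 9 of 14 were higher, with a median of 5.73. Noto, a homeobox factor of the node, stood at 5.40 and 5.44 CPM in endoderm and 0, 0 and 0 CPM in Foxa2- CM. This list shares Cer1, Chrd, Lefty1, Gsc and Foxa2 with lists described above. The part that such other cells had in the differences was not tested.

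Genes of the cell cycle, chromatin, protein turnover and basic metabolism stood mostly at a similar level in both populations, as did 85.9% of genes with at least 10 CPM in both groups. The similar genes numbered 8384, of which 8248 were protein coding, and their median level in endoderm was 79.3 CPM. Their median absolute log2 fold change was 0.16. Their median 95% half-width was 0.23 on the log2 scale. Of them, 1588 had an adjusted p under 0.05 in edgeR and so differed by a small, measurable amount, up to an absolute log2 fold change of 0.83. Of the 9765 genes with at least 10 CPM in both groups, 85.9% were similar, 365 were higher and 296 lower. For 8066 of the similar genes, or 96.2%, the means of Foxa2+ CM and Flk1+ high mesoderm also lay within 2-fold of both, counting all 4 groups together with 0.5 CPM added. Flk1+ high mesoderm was more than 2-fold below the average of the log2 means of endoderm and Foxa2- CM for 102 similar genes. It was more than 2-fold above that average for 64. For Foxa2+ CM these numbers were 9 and 6.

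**Figure D4:**
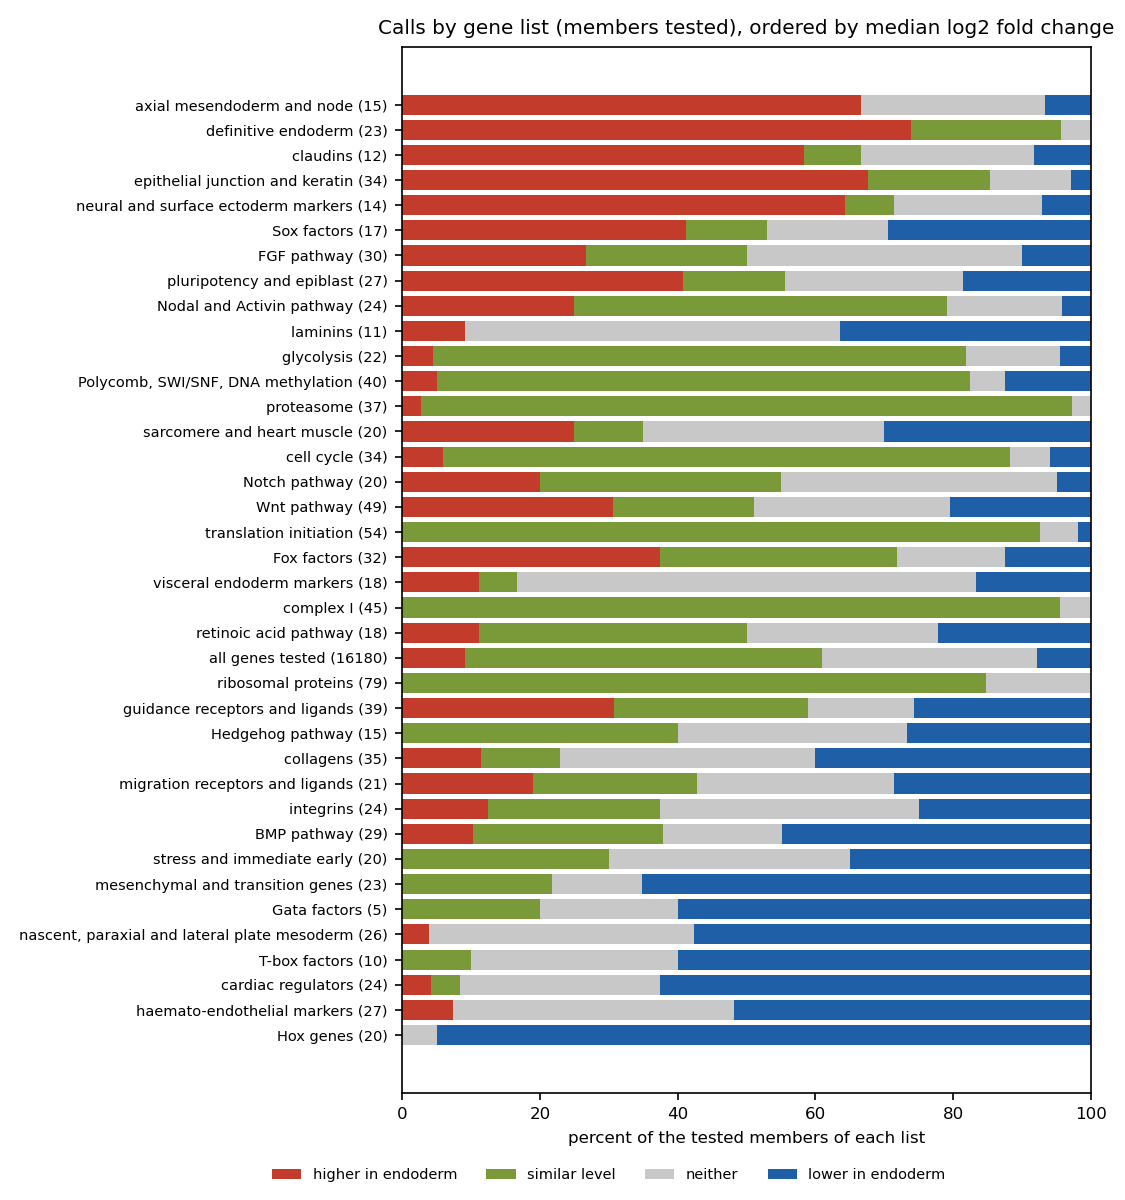
Share of the tested members of each gene list that were higher in endoderm, lower, similar or neither, as stacked bars in percent, ordered by the median log2 fold change of the list, with the number tested beside each name. The bars for proteasome, complex I and translation initiation are almost wholly similar, and the bar for Hox genes almost wholly lower.

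Similar genes made up 35 of 37 proteasome genes, 43 of 45 genes of respiratory complex I, 50 of 54 translation initiation factors and 67 of 79 ribosomal protein genes. They also made up 28 of 34 cell cycle genes, 31 of 40 genes of Polycomb, SWI/SNF and DNA methylation, and 17 of 22 glycolysis genes. The background is 51.8% over all tested genes and 85.9% over genes with at least 10 CPM in both groups, the level that a similar gene had to reach. Of tested members, the similar share was 94.6% for proteasome, 95.6% for complex I and 92.6% for translation initiation genes. It was 84.8% for ribosomal protein, 82.35% for cell cycle, 77.5% for chromatin and 77.3% for glycolysis genes, none of them above 85.9%. Mki67, a proliferation marker, stood at 612 and 581 CPM in endoderm and 491, 550.2 and 549 CPM in Foxa2- CM (interval 0.02 to 0.32). Cdk1, the mitotic kinase, stood at 138 and 119 CPM in endoderm and 118, 126 and 121 CPM in Foxa2- CM (interval -0.13 to 0.28). Exceptions in the cell cycle list were Cdkn1c, a kinase inhibitor, lower at 1.30 and 3.51 CPM in endoderm and 32.1, 31.7 and 14.9 CPM in Foxa2- CM (log2FC -3.42, SE 0.69), Ccnd2, or cyclin D2, lower (-1.41), and Rb1 and Mycl, higher at 1.23 and 1.35. Among chromatin genes, Ezh2 and Smarca4, the catalytic subunits of Polycomb complex 2 and of SWI/SNF, were similar with intervals of -0.01 to 0.37 and 0.04 to 0.37. Cbx8, a chromobox protein of Polycomb complex 1, was lower, at 0.745 and 1.51 CPM in endoderm and 8.42, 7.38 and 10.1 CPM in Foxa2- CM. Its paralog Cbx7 was higher (log2FC 1.16, SE 0.17), and Smarca2, the paralog of Smarca4, was lower (log2FC -1.38, SE 0.27). The de novo DNA methyltransferase Dnmt3b was higher (log2FC 1.20, SE 0.08), and Dnmt1 and Dnmt3a were similar. In glycolysis, the isoform genes Pfkp and Ldhb were called, lower (95% interval -2.36 to -1.63) and higher (1.19), while Pfkl, Pfkm and Ldha were similar. Cdkn1c, Ccnd2 and Ldhb lost their call without endoderm replicate 1, and Smarca2 without endoderm replicate 2.

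Similarity at high density is limited by the removal of duplicate reads, since a gene near 2 reads per exonic base cannot rise further. By the rule for similar genes with the highest CPM per kb of exon, Snora43, Eef2, Hsp90ab1, Cfdp1, Amot, Stip1, Tubb5, Arhgdia, Mixl1 and P4hb were named, and apart from Snora43 their highest density was between 1.45 and 1.64 counts per base. Eef2, a translation elongation factor, stood at 473 and 429.6 CPM in endoderm and 336, 414 and 307 CPM in Foxa2- CM, and Hsp90ab1, a chaperone, at 414 and 371 CPM in endoderm and 290.5, 364 and 263 CPM in Foxa2- CM. For both, the order of the levels over the 5 samples was the inverse of the order of the total counts. Snora43, a small nucleolar RNA gene, overlaps a second entry of the same name, and its 5.16 counts per annotated base exceed the ceiling. Among the 9722 genes with at least 10 CPM in both groups and a known exonic length, the share at a similar level was 77.3% of 3100 genes whose highest density was under 0.2 counts per base, 88.7% of 4265 genes from 0.2 to 0.5, 92.1% of 2123 genes from 0.5 to 1, and 90.6% of 234 genes at 1 or above. After a correction of each count for the ceiling, similar genes in these classes numbered 2291, 3734, 1933 and 206, against 2395, 3783, 1956 and 212 before it. Density and correction use all annotated exons of a gene, so a gene whose reads fall on part of them can be nearer the ceiling than they show. Of the 67 similar ribosomal protein genes, 47 were under 0.5 counts per base and 64 stayed similar after the correction, with this same limit. Similar genes under 0.2 counts per base, far from the ceiling by this measure, include Sox11 and the guidance receptor Ephb3. Sox11 stood at 61.8 and 61.9 CPM in endoderm and 51.6, 56.5 and 63.6 CPM in Foxa2- CM. Ephb3 had an interval of -0.48 to 0.24.

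**Figure D5:**
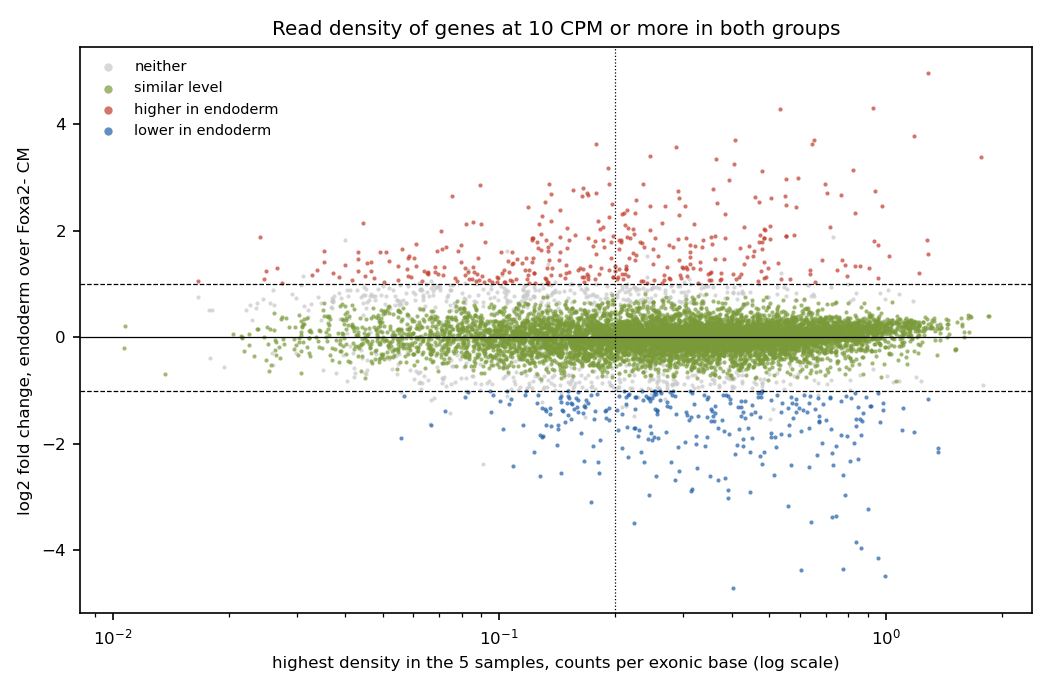
Log2 fold change of endoderm relative to Foxa2- CM (y axis) against the highest number of counts per exonic base in any of the 5 samples (x axis, log scale), for 9721 genes with at least 10 CPM in both groups, with 1 gene above 2 counts per base not drawn and a dotted line at 0.2. Large changes in both directions are seen on both sides of the line, with fewer genes and a narrower spread near 1 to 2 counts per base.

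Stress and immediate early genes, which respond to dissociation and sorting, were lower in 7 of 20, higher in none and similar in 6, with a median of -1.09. Atf3, a stress-induced factor, stood at 2.61 and 5.02 CPM in endoderm and 19.4, 12.9 and 16.1 CPM in Foxa2- CM (log2FC -2.07, SE 0.27). Jun stood at 33.8 and 44.7 CPM in endoderm and 72.4, 84.4 and 94.5 CPM in Foxa2- CM (log2FC -1.09, SE 0.18) and Fos at 67.2 and 53.3 CPM in endoderm and 117, 160.5 and 118 CPM in Foxa2- CM (log2FC -1.13, SE 0.31). Egr1 was similar, at 210.4 and 189 CPM in endoderm and 213, 258 and 136 CPM in Foxa2- CM. The lower members numbered 4 without endoderm replicate 1. Fos lost its call without either endoderm sample or Foxa2- CM replicate 2, and Jun without endoderm replicate 1 or Foxa2- CM replicate 3. What part handling had in these levels was not tested.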

How the data were processed

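RNA from 10 sorted samples was sequenced, of which 2 endoderm and 3 Foxa2- CM samples were compared. The authors prepared 500 ng of RNA per library, sequenced single 50 nt ends, aligned to mm10 with STAR 2.5.0a, dropped duplicates with Picard and assigned reads to genes with HTSeq 0.6.0. The deposited values are raw counts in whole numbers. Duplicate removal keeps at most 2 counts per exonic base, which compresses differences between highly expressed genes. The authors' own comparison used DESeq2.

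Groups were taken from the sample labels, and 1 model was fitted to all 10 samples with group as its term, since endoderm has 2 samples. edgeR 4.0.16 in R 4.3.3 was used with TMM factors, its expression filter and the quasi-likelihood test with Benjamini-Hochberg adjustment at 0.05. CPM used TMM-normalized library sizes. Similarity was tested by 2 one-sided tests against log2 limits of -1 and 1. The named genes are those used for sorting, the 15 largest rises and 15 largest falls among called genes (mean count 50 or more, groups not overlapping), members of the 37 gene lists, the 10 similar genes with the highest CPM per kb, and paralog pairs. The members and lists were chosen with earlier results of these data known. Ratios with 1 to 3 counts in a group carry exact conditional binomial intervals on counts summed over the group, which cover counting error only. Groups without counts were set at a floor of 3 counts summed over the group, 0.132 CPM in endoderm and 0.0646 CPM in Foxa2- CM.

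Symbols and positions came from GENCODE M21, which matched 37607 of 38924 identifiers, and promoters from RefSeq (GRCm38.p6), which matched 11567 of the tested genes. Between 72.2% and 80.5% of the uniquely aligned reads per sample were on genes. The fit was tested on simulated data, in which 200 of 15699 genes were changed by 1.5 on the log2 scale. It recovered 86% of the changed genes, called 4 unchanged genes and found 97% of 9965 unchanged genes at 10 CPM or more to be similar. The 17 other settings tried were DESeq2 1.42.0, other size factors, filters, fold limits and levels, the 5 samples alone, a replicate block, a correction for the duplicate ceiling and leaving out each sample, and 1 limit on read density was added after seeing the data. The single-gene results of 2 list members are not reported here. Figures were made with matplotlib 3.10.9, pandas 2.3.3 and Python 3.11.15.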

Additional observations from a re-analysis of the deposited data

How the results depend on the processing

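None of the 348 called genes followed changed sign in any of 12 other fits. Of 11274 gene values compared with an alternative, 10819 kept their side of the threshold, 317 lost a call, 254 of these with a sample left out, and 138 gained one. Of 348 called genes followed, 217 kept their call in every alternative. With a fold limit of 4 the calls were 826 higher and 682 lower, and with a test against the 2-fold limit 819 and 590. Leaving out 1 sample gave 1151 to 1438 higher genes, 806 to 1216 lower genes and 7974 to 8272 similar genes, and the 806 lower genes came without endoderm replicate 1, 752 of them also lower with it. A limit to genes under 0.2 counts per exonic base, chosen after seeing the data, left 1233 higher, 947 lower and 2395 similar genes. The other settings stayed within 1.5 times of 1485, 1263 and 8384, with DESeq2 at 1504, 1383 and 8385 and the correction for the duplicate ceiling at 1531, 1273 and 8198. Of 1120 counts over gene lists, 133 moved by more than 1.5 times. The counts without the genes of the sort gate were chosen after seeing the data. The median of 7 of 37 lists changed sign in at least 1 of 12 alternatives. It ran from -0.96 to 0.64 for visceral endoderm markers, -0.012 to 0.21 for the sarcomere, -0.09 to 0.16 for Wnt, -0.07 to 0.13 for retinoic acid, -0.26 to 0.015 for guidance, -0.02 to 0.05 for complex I and -0.48 to 0.84 for laminins.

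Endoderm and Foxa2- CM share only replicate numbers 1 and 2, and deviations from the group means of same-numbered samples correlated at 0.0427 and -0.109 over genes, so the numbers were not taken to pair the samples. A fit with the replicate block called 1507 genes higher, 1230 lower and 8387 similar. Calls of genes with few counts are limited by the 2 endoderm samples and by depth, since 3 counts in 1 library already stand for 0.174 to 0.275 CPM.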

Other observations

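The other mesoderm populations stood nearer to Foxa2- CM than to endoderm for most of the called genes. On the log2 CPM scale, Foxa2+ CM was nearer to endoderm for 68 of the 1485 genes higher in endoderm and for 142 of the 1263 lower genes. Flk1+ high mesoderm was nearer to endoderm for 233 of the higher and 498 of the lower genes. The genes were chosen by the distance between endoderm and Foxa2- CM, so these are counts without a test. Sox17 stood at 27.7, 23.3 and 19.8 CPM in Foxa2+ CM, above every Foxa2- CM sample and below both endoderm samples. Hand2 stood at 3.51 and 17.1 CPM in Flk1+ high mesoderm.

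The TATA box string (TATAAA) was found in a promoter of 8.59% of all, 11.2% of higher, 9.66% of lower and 7.22% of similar genes. The GATA factor string (AGATAAG) was found in 2.47% of all, 2.48% of higher, 3.68% of lower and 1.95% of similar genes. The T-box string (TCACACC) was found in 4.22% of all, 4.95% of higher, 4.83% of lower and 3.63% of similar genes. The SOX string (AACAATG) was found in 2.44% of all, 3.3% of higher, 2.3% of lower and 2.11% of similar genes. Both strands were searched. Among the 274 higher and 221 lower genes with at least 10 CPM in both groups, the numbers were small. The TATA box string was found in 28 higher (10.2%) and 16 lower genes (7.24%), and the GATA string in 2 (0.73%) and 4 (1.81%). At that level the T-box string was found in 12 higher (4.38%) and 5 lower genes (2.26%), and the SOX string in 5 (1.82%) and 6 (2.71%).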
